A study of Mus musculus with 6 samples.

Results

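The 10 genes described here mark macrophages of tumour and lung or are products of them: the lineage and surface markers Adgre1, Cd68, Csf1r, Cd14, Mrc1 and Ms4a7, the complement subunits C1qa, C1qb and C1qc, and the arginase gene Arg1. They are 10 of 12394 genes that had a probe set annotated with a single symbol, and they were taken by symbol, with 14 probe sets in all. Where a gene had several probe sets, the brightest by its mean over the 6 arrays was used as the main one, so mean brightness is a selection value and not a result. The genes were chosen by their marker role with the KO and Het signals of an earlier look at these arrays known, so their group differences are given as a description. The RNA was that of metastases in the lung. The tumours arose from an MMTV-Myc transgene, whose mouse mammary tumour virus promoter is active mainly in mammary epithelium and drives the oncogene Myc. The KO group held 3 metastases from E2F2 knockout mice, and the Het group held 3 metastases from mice heterozygous for E2F3. All 6 carried the Myc transgene on the FVB strain and were collected at endpoint. The titles of the Het metastases share a number, with the endings LM2, LM1 and LM3 for Het replicates 1, 2 and 3, whereas the titles of the KO metastases carry 3 different numbers. The Het group may therefore be 3 metastases of 1 mouse, and the Het arrays were counted as 1 sample in the fit. The ages of the mice, the form of the E2F alleles and the meaning of the title numbers are not given in the sources used here. Metastases intact at both loci were not analysed here.

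Macrophages depend on the receptor encoded by Csf1r, which binds the growth factors CSF1 and IL-34. C1q is the recognition molecule of the classical complement pathway: its subunits C1qa, C1qb and C1qc assemble into a bouquet of collagen-like stalks and globular heads that bind antibody on surfaces and dying cells, and macrophages are a main source of it. Arginase 1 splits arginine into ornithine and urea. It serves the urea cycle in liver and is induced in mouse macrophages by IL-4 and IL-13, and tumour-associated macrophages are known to express it. In bulk RNA, fewer macrophages and less RNA per macrophage cannot be told apart.

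The C1q genes lie side by side on chromosome 4, in the order C1qb, C1qc and C1qa with 0 other genes between them in the RefSeq gene table. C1qb and C1qc had the closest pair of profiles among the 10 genes, so their promoter windows are shown, next to that of Cd68, whose profile was also close, and that of Mrc1, whose profile departed from them. Each window runs from 250 bases before the gene's start to 50 after it and is read 5′ to 3′ on the gene's strand (RefSeq, GRCm38.p6). Capitals mark GAGGAA or its reverse complement TTCCTC, the core bound by ETS factors such as the macrophage regulator PU.1, and TGAGTCA or its reverse complement TGACTCA, the element of AP-1. The positions are chr4:136886151-136886450 (- strand) for C1qb, chr4:136892865-136893164 (- strand) for C1qc, chr11:69666121-69666420 (- strand) for Cd68 and chr2:14229164-14229463 (+ strand) for Mrc1.
C1qb: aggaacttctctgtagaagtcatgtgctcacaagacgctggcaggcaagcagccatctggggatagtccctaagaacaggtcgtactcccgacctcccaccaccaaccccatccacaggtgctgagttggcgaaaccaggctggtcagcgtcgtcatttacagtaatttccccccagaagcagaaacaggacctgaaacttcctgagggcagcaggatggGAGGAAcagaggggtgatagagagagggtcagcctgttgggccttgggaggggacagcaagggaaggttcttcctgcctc
C1qc: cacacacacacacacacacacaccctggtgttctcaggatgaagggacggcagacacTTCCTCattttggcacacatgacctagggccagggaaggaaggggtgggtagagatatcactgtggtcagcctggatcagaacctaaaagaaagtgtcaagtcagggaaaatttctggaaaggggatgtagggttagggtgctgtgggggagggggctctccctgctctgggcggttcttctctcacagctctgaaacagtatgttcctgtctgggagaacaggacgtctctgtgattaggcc
Cd68: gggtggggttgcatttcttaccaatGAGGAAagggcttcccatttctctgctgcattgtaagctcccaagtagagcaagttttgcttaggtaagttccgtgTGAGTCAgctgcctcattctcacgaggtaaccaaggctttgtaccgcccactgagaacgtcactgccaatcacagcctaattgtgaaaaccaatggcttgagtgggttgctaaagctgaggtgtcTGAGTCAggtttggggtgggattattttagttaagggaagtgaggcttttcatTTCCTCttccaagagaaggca
Mrc1: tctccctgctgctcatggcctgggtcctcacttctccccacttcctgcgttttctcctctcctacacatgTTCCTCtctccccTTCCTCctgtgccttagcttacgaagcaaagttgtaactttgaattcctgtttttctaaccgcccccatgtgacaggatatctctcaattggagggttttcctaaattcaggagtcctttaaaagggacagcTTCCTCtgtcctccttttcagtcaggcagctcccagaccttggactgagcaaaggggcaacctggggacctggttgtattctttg
C1qb and C1qc each held 1 GAGGAA core, Cd68 held 2 and Mrc1 held 3. TGAGTCA occurred 2 times in the Cd68 window. Windows of 5 of the 10 genes were examined, with 2 alternative ones for Ms4a7, and 5 of these 6 windows held GAGGAA and 1 held TGAGTCA. Among all 32851 promoter windows of the same length, 28.3% held GAGGAA and 5.2% held TGAGTCA. Since only 5 of the 10 genes are covered and Ms4a7 counts for 2 windows, nothing is read from the comparison of these shares. These matches describe letters in the window and say nothing about binding of a factor in these metastases.

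Every array had the same trimmed mean signal of 500.2, since the authors had scaled them, and the median signals lay between 137.6 and 164.8. Het replicate 1 stood apart in RNA quality, with a 3' to 5' signal ratio of 11.8 for the transferrin receptor, against 3.25 to 5.15 on the other arrays. Leaving it out moved the log2 difference of KO minus Het by over 1.5 times for 2 of the 10 genes, Adgre1 and Csf1r, and for 9 of 52 other genes named here, and those values are given beside them. No probe set carried the symbol E2f2, so the KO label was not checked on its own gene. E2f3 had 91.6, 91.4 and 138 in KO metastases, against 87.2, 144 and 73.0 in Het metastases, and the groups overlapped. Whether its probes lie in the altered part of that gene is not known here. The 9 markers of tumour epithelium were all bright enough to be tested, and their median lay between -0.09 and 0.15 of the 6-array mean on the log2 scale.

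None of the 14 probe sets of these genes passed the test of KO against Het. With limma on log2(signal + 16), where the 3 Het arrays were averaged into 1 sample, 0 of the 10 genes and 0 of 13575 probe sets (0%) passed an adjusted p of 0.05, and every one of the 14 had an adjusted p of 0.9999. Of the 10 genes, 1 had an unadjusted p under 0.05, against 2.22% of all probe sets tested. With each array taken as a sample, limma again called 0 of the 10 and 0 of 13575 probe sets, and 4 of the 10 had an unadjusted p under 0.05, against 10.3% of all. On simulated data the fit with Het averaged made almost no calls for changes of the size seen in these genes, so a count of 0 does not show equal levels. The smallest two-sided p that an exact permutation test allows for 3 against 3 is 0.1. That bound takes each array as a sample and does not apply to the fit with Het averaged. The main probe sets of 3 genes were higher in KO metastases and those of 7 were lower, without passing the test, and the median log2 difference was -0.22, against -0.02 over all probe sets tested. The KO and Het arrays did not overlap for 3 of the 10 genes, of which Arg1 was higher in KO and Cd14 and Ms4a7 were lower. The background was 16.7% of all probe sets without overlap, with 7.82% higher and 8.91% lower in KO. Because the genes were picked with such values known, nothing is read from this count or from the counts of unadjusted p above. Without Het replicate 1 the count was 4 of 10, against 26.8% of all probe sets. Without KO replicate 2 it was 8 of 10, against 23.5% of all probe sets. Lower in KO without overlap were then 7 of the 10 genes, against 12.9% of all probe sets. The same limit applies to these counts.

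**Figure D1:**
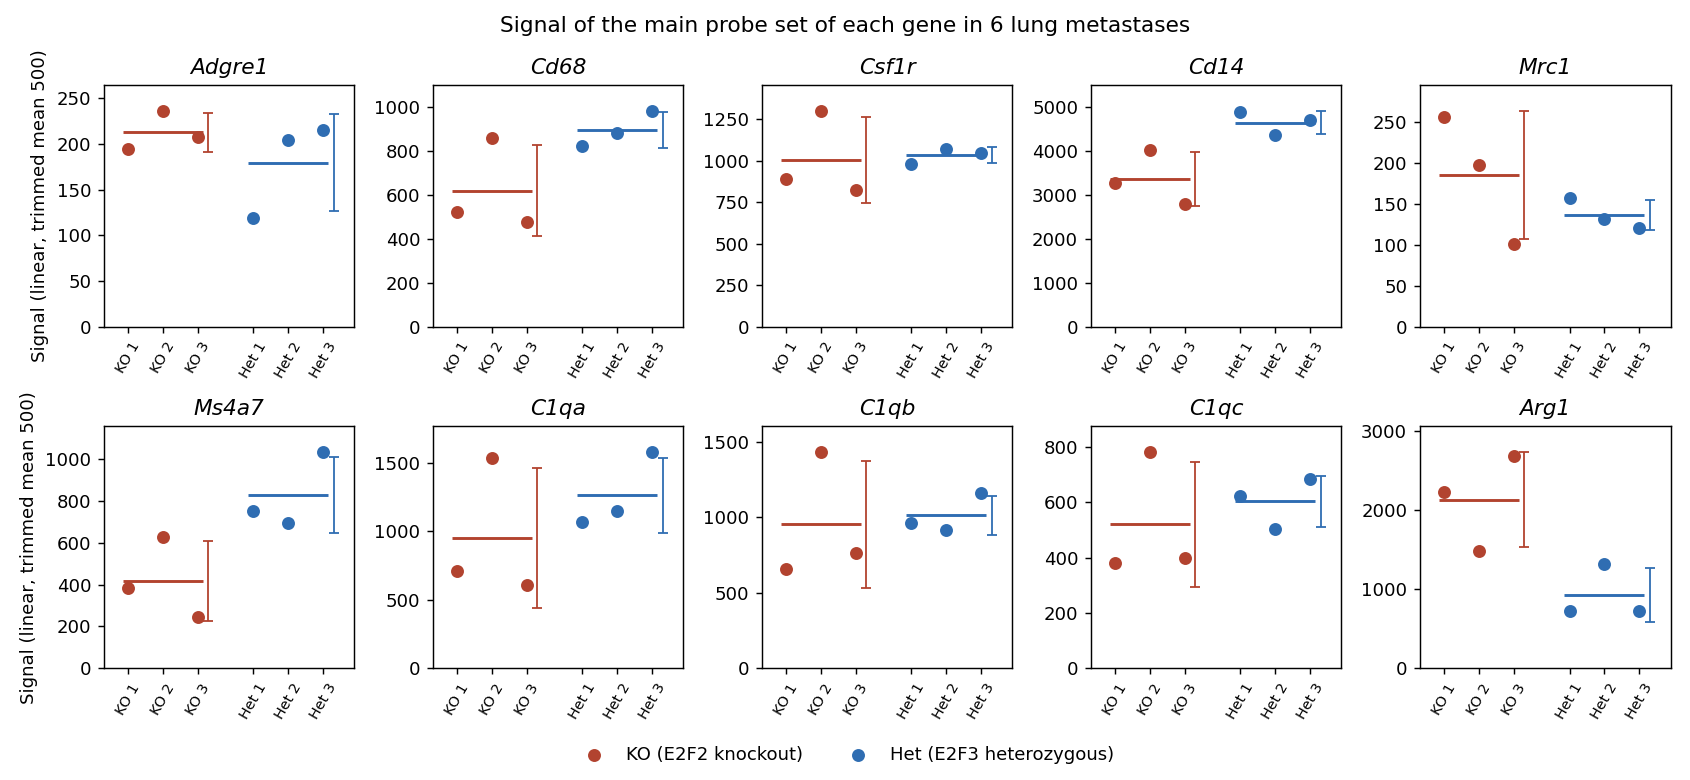
Signal (linear scale from 0, separate for each panel) of the main probe set of the 10 genes in the 3 KO and 3 Het lung metastases. Points are arrays, horizontal lines are group means and the bars beside them are SD (n = 3 arrays each). All KO points lie above all Het points for Arg1 and below them for Cd14 and Ms4a7.

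The C1q subunits varied between KO metastases by more than the groups differed. C1qa had a signal of 710.0, 1537 and 608 in KO replicates 1, 2 and 3, against 1068, 1145 and 1579 in Het replicates 1, 2 and 3. KO replicate 2 was thus close to the brightest Het metastasis, and the other KO metastases were below all of the Het ones. C1qb had 659.9, 1432 and 766.5 in KO metastases, against 963, 918 and 1160.0 in Het metastases. C1qc had 381, 782 and 398 in KO metastases, against 622, 503.5 and 685 in Het metastases. For both C1qb and C1qc, KO replicate 2 was the highest of the 6 arrays and KO replicates 1 and 3 the lowest. The dimmer probe sets of C1qb are of the kind whose probes may also bind other transcripts. The brighter of them had 557, 1399 and 609.6 in KO metastases, against 1010.0, 780.1 and 1060.5 in Het metastases, and the other had 475, 932 and 436 in KO metastases, against 759.7, 564 and 842 in Het metastases. All 3 probe sets of C1qb therefore put KO replicate 2 highest and Het replicate 3 next to it.

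Averaged over the main probe sets of the C1q subunits, KO minus Het came to -0.31 on the log2 scale, with a log2 SD of 0.61 among KO and 0.21 among Het metastases (n = 3 arrays each). The difference was -0.505 (SE 0.54) for C1qa, -0.16 (SE 0.46) for C1qb and -0.28 (SE 0.45) for C1qc, and -0.26 and -0.29 for the dimmer C1qb probe sets. The differences of all 3 subunits were therefore within 1 SE of the fit. Leaving out KO replicate 2 moved the mean of the subunits to -0.67, and leaving out KO replicate 1 or KO replicate 3 moved it to -0.13 and -0.14. Without Het replicate 1 it was -0.35. The summed signal of the 3 main probe sets was 1751, 3750.1 and 1772 in KO replicates 1, 2 and 3, and 2653, 2567 and 3424 in Het replicates 1, 2 and 3.

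Csf1r had the smallest group difference of the 10 genes. Its main probe set had 888.5, 1299 and 820.5 in KO metastases, against 980.5, 1072 and 1045 in Het metastases. Again KO replicate 2 was highest and KO replicates 1 and 3 were lowest, while the Het values differed from each other by a factor of 1.09. The log2 difference was -0.07 (SE 0.32), and -0.11 without Het replicate 1. It turned to 0.057 without KO replicate 3 and was -0.27 without KO replicate 2. The dimmer probe sets of Csf1r were at 0.11 (SE 0.38) and -0.22 (SE 0.32), so the probe sets disagreed on the sign.

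Cd68, a glycoprotein of lysosomes and endosomes used as a general macrophage marker, had 523, 856 and 477 in KO metastases, against 822, 882 and 981.5 in Het metastases. KO metastases averaged 619 ± 207 and Het metastases 895 ± 80.7 (SD, n = 3 each). The log2 difference was -0.565 (SE 0.38), and KO replicate 2 fell inside the Het range. Adgre1 encodes F4/80, an adhesion receptor of mouse macrophages. It had 195, 236 and 208 in KO metastases, against 119, 205 and 215 in Het metastases. The low Het value was that of Het replicate 1, and the remaining 5 values overlapped. The log2 difference was 0.26 (SE 0.27), and 0.015 without Het replicate 1.

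Cd14, the co-receptor that hands lipopolysaccharide to TLR4, was lower in every KO metastasis than in every Het metastasis. Its signal was 3272, 4035.5 and 2798 in KO metastases, against 4894, 4369 and 4701.5 in Het metastases. KO metastases averaged 3369 ± 624 and Het metastases 4655 ± 265 (SD, n = 3 each). Cd14 was at -0.48 (SE 0.25) as a log2 difference, with an adjusted p of 0.9999 by limma, and it lay between -0.62 and -0.35 when any 1 array was left out. The gap between the groups was small, at 4035.5 for the highest KO and 4369 for the lowest Het metastasis.

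Ms4a7, a membrane protein of the MS4A family found on macrophages, had 384, 625 and 245 in KO metastases, against 753, 697 and 1033 in Het metastases. The groups did not overlap, and the highest KO value was again that of KO replicate 2. KO metastases averaged 418 ± 192.5 and Het metastases 828 ± 180.3 (SD, n = 3 each). Ms4a7 was at -1.03 (SE 0.51) as a log2 difference, with an adjusted p of 0.9999 by limma, or a 2.05-fold lower level in KO on that scale. The difference was -1.09 without Het replicate 1, and -1.36 to -0.715 over each of the 6 arrays left out in turn. A log2 difference of at least 1 downwards without overlap was seen for 39 of 13575 probe sets, or 0.287%, Ms4a7 among them. Because Ms4a7 was picked with its values known, nothing is read from this share.

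Mrc1, the mannose receptor CD206, is carried by alveolar macrophages and by alternatively activated macrophages. It had 257, 198 and 102 in KO metastases, against 157, 131.5 and 121 in Het metastases. KO replicate 1 was highest and KO replicate 3 lowest of all 6, so the Het values lay inside the KO range. The log2 difference was 0.325 (SE 0.51), with a value of 0.06 when KO replicate 1 was left out and 0.67 when KO replicate 3 was. Markers of lung alveolar epithelium were also highest in KO replicate 1 and lowest in KO replicate 3, with list medians of 1.37, 0.43 and -0.99 in KO replicates 1, 2 and 3 and 0.39, -0.64 and -0.44 in Het replicates 1, 2 and 3, on the log2 scale relative to the mean of the 6 arrays. Of the 13 alveolar markers on the array, 12 were bright enough to be tested, and their summed signal ran from 14398 to 73063 in KO and from 21841 to 34816 in Het metastases. The part of adjacent lung in the Mrc1 values was not tested.

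Arg1, like Adgre1 and Mrc1, was higher on average in KO metastases, and its difference was the largest of these 3 genes. Its signal was 2221, 1485 and 2676 in KO metastases, against 727, 1322 and 728 in Het metastases. All KO values were above all Het values, with the lowest KO metastasis, KO replicate 2, at 1485 and the highest Het metastasis, Het replicate 2, at 1322. KO metastases averaged 2127.5 ± 601 and Het metastases 926 ± 343 (SD, n = 3 each). Arg1 was at 1.20 (SE 0.36) as a log2 difference, with an adjusted p of 0.9999 by limma, a 2.30-fold higher level in KO on the log2(signal + 16) scale. It stayed between 1.02 and 1.49 when any 1 array was left out and was 1.06 without Het replicate 1. An upward log2 difference of at least 1 without overlap was seen for 113 of 13575 probe sets, or 0.832%, Arg1 among them. Because Arg1 was picked with its values known, nothing is read from this share. With each array as a sample, the adjusted p of Arg1 was 0.360 (limma).

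Arg1 is also made by cells other than macrophages. All 9 hepatocyte markers on the array were too dim to be tested, with a summed signal of 94.7 to 256 in KO and 96.8 to 137 in Het metastases. Keratinocyte markers, of which 6 of 9 were bright enough, had a summed signal of 916 to 7180.0 in KO and 2200 to 9460 in Het metastases. They were lowest in KO replicate 1, which had the second highest Arg1 signal. Neutrophil markers, with 6 of 12 bright enough, had a summed signal of 14064 to 23777 in KO and 16482 to 18072 in Het metastases. Their list median relative to the 6-array mean was -0.52, 0.89 and 0.50 on the log2 scale in KO replicates 1, 2 and 3, and 0.17, -0.77 and -0.26 in Het replicates 1, 2 and 3. It was thus highest in KO replicate 2, the KO metastasis with the lowest Arg1 signal, and lowest in Het replicate 2. No marker of these lists was listed at 0. The part of keratinocytes and neutrophils in the Arg1 values was not tested.

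**Figure D2:**
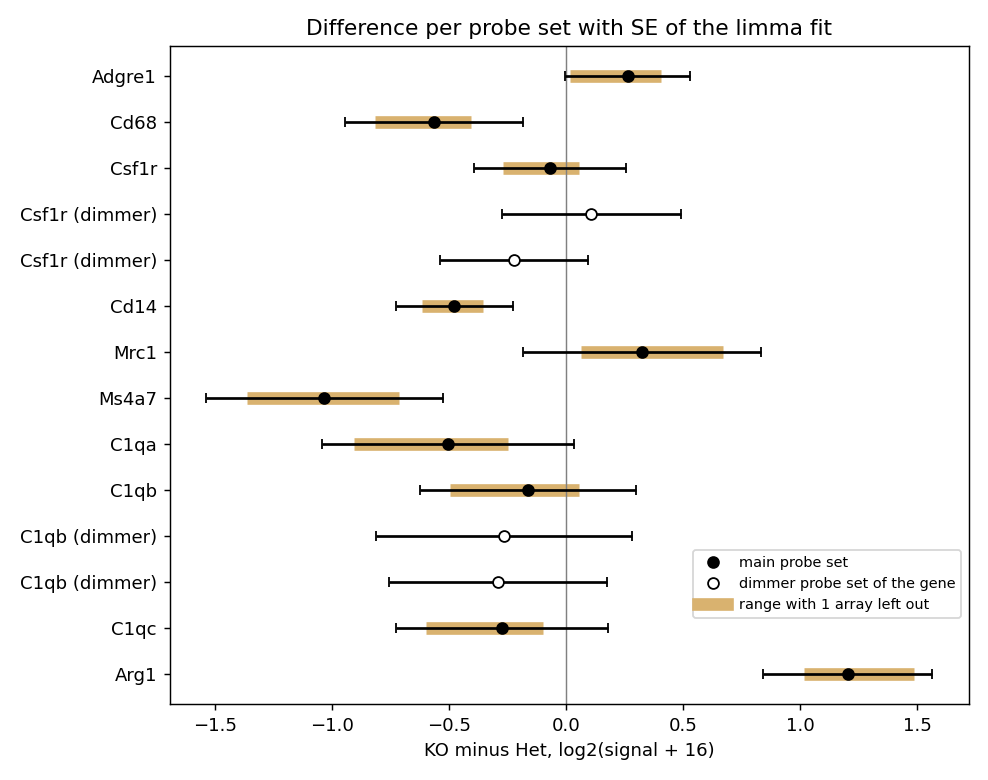
Log2 difference of KO minus Het (x axis, on log2(signal + 16)) for each of the 14 probe sets. Points are estimates of the limma fit with bars of 1 SE, open points are dimmer probe sets of a gene, and tan bands span the estimates of the main probe set with any 1 array left out. Arg1 at 1.20 and Ms4a7 at -1.03 lie farthest from 0, and the bands of Csf1r and C1qb cross 0.

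The 10 genes did not share 1 profile across the metastases. Likeness was measured as the root mean square distance between profiles of log2(signal + 16) over the 6 arrays, each centred on its own mean, so that 0 means the same profile and flat or strongly varying genes lie far apart. These distances are descriptions over 6 arrays that share scaling and, in the Het group, possibly a mouse. C1qb and C1qc lay 0.097 apart, and no other of the 7955 genes compared was closer to C1qb. Seen from C1qc, C1qb ranked only 4 in nearness, and seen from C1qa, C1qc ranked 9 and C1qb 16. C1qa lay 0.21 from C1qc and 0.24 from C1qb. For scale, the probe sets of C1qb lay 0.11 to 0.16 from each other and those of Csf1r 0.11 to 0.21. The distances between subunits of the complex thus overlapped those between probe sets of a single gene.

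Cd68 lay 0.185 to 0.244 from the C1q genes and 0.16 from Cd14, whereas Ms4a7 lay 0.30 from C1qa but 0.50 from C1qb. Csf1r lay 0.20 from C1qb and 0.34 from C1qa. Mrc1 lay at least 0.41 from each of the other genes, with Csf1r nearest. Adgre1 lay 0.305 from Csf1r and 0.765 from Ms4a7. Arg1 was the farthest gene from each of the others except Adgre1 and Mrc1, from which Ms4a7 was farther (0.765 and 0.78). The distances of Arg1 were 0.63 to Adgre1, 0.76 to Mrc1, 0.82 to Csf1r and 1.345 to Ms4a7.

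**Figure D3:**
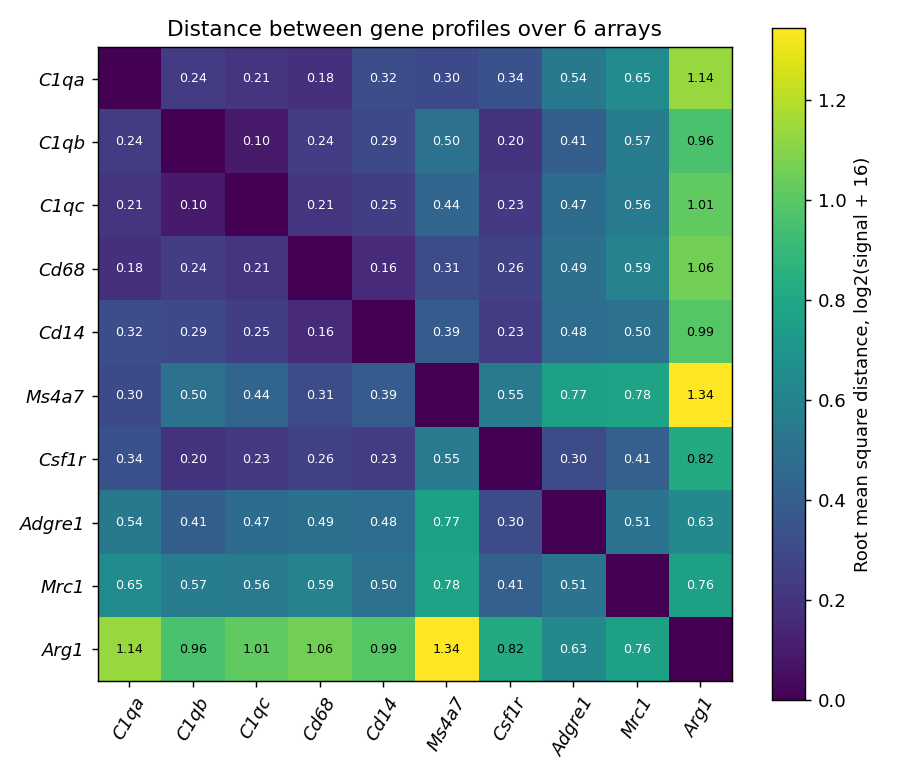
Root mean square distance between the log2(signal + 16) profiles of the 10 genes over the 6 arrays, each profile centred on its mean (both axes are genes, colour and printed value are the distance). The C1q genes lie 0.097 to 0.238 from each other, and Cd68, Cd14 and Csf1r lie at most 0.339 from each of them. Arg1 has the largest distance to every gene except Adgre1 and Mrc1, up to 1.345 from Ms4a7.

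Among 7946 other genes, the 5 with profiles nearest to the mean of the C1q subunits were Acp5, Apobec1, Hdhd3, Cryzl2 and Tyrobp, at distances of 0.116 to 0.133, where the median distance over all these genes was 0.453. Acp5 encodes the tartrate-resistant acid phosphatase of osteoclasts and macrophages. It had 549, 1065 and 589 in KO metastases, against 906, 943 and 1070.1 in Het metastases. Tyrobp encodes the signalling adaptor DAP12 of myeloid cells. It had 412, 884 and 415 in KO metastases, against 792, 582 and 739 in Het metastases. In KO metastases Apobec1 had 92.5, 204 and 97.1, Hdhd3 had 160, 288 and 147, and Cryzl2 had 60.2, 119 and 48.5. All 5 genes thus had KO replicate 2 above the other KO metastases, which follows from their choice by profile. Apobec1, Hdhd3 and Cryzl2 had log2 differences of -0.26 (SE 0.49), -0.31 (SE 0.42) and -0.31 (SE 0.51).

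No gene came as near to Arg1 as these came to C1q, but the distances are not directly comparable. The C1q profile was a mean over the subunits, that of Arg1 came from a single probe set, and the median distance over all genes was larger for Arg1. The nearest were Col9a1 (distance 0.256), Ier3 (0.327), Igf2r (0.347), Cxcl1 (0.349) and Khdrbs3 (0.351), where the median over all 7946 genes was 0.768. Col9a1, a chain of type IX collagen, had 6224, 4054 and 5082 in KO metastases, against 1940.3, 3260.1 and 2539 in Het metastases. The neutrophil-attracting chemokine gene Cxcl1 had 209, 173 and 405 in KO metastases, against 117.5, 108 and 98.6 in Het metastases. The log2 differences were 0.99 (SE 0.27) for Col9a1, 0.87 (SE 0.33) for the early response gene Ier3 and 1.08 (SE 0.49) for Cxcl1. They were 0.64 (SE 0.25) for Igf2r, which encodes the mannose 6-phosphate receptor, and 0.82 (SE 0.34) for the RNA-binding protein gene Khdrbs3. None of these genes passed (limma adjusted p = 0.9999 for each). That all of them were higher in KO, as Arg1 was, follows from their choice by profile.

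Seen by metastasis, KO replicate 2 was above the 6-array mean in all 10 genes and held the highest signal in 4 of them. KO replicate 3 had the lowest signal in 6 genes and was below the mean in 8, and KO replicate 1 was below the mean in 7. The median of the 10 genes relative to the 6-array mean was -0.37, 0.305 and -0.46 on the log2 scale in KO replicates 1, 2 and 3, and 0.03, 0.09 and 0.27 in Het replicates 1, 2 and 3. Over all probe sets tested, the corresponding medians were between -0.014 and 0.024. For 8 of the 10 genes both KO replicate 1 and KO replicate 3 were below KO replicate 2, which held for 28.9% of all probe sets tested. The exceptions were Mrc1 and Arg1. The KO metastases were also more spread out than the Het metastases: the log2 SD was larger in KO for 8 of the 10 genes, all except Adgre1 and Arg1, with medians of 0.50 in KO and 0.20 in Het. Over all probe sets tested the SD was larger in KO for 59.5%, with medians of 0.22 in KO and 0.18 in Het. Since the Het metastases may share a mouse, spread between mice and genotype cannot be told apart here.

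Other macrophage genes were taken from lists, given here by counts and medians. Of 25 other macrophage and myeloid genes, 19 were bright enough to be tested, 0 passed (limma adjusted p), and 4 were higher and 15 lower in KO, with a median log2 difference of -0.13. Both KO replicate 1 and KO replicate 3 were below KO replicate 2 for 17 of these 19. Clec7a, the beta-glucan receptor Dectin-1, had 478, 512 and 290.4 in KO metastases, against 224, 209 and 219.6 in Het metastases, without overlap. Its log2 difference was 0.88 (SE 0.38). The log2 difference was -0.36 (SE 0.265) for Mertk, a receptor for dying cells, and -0.42 (SE 0.38) for the scavenger receptor gene Msr1, whose dimmer probe sets were at -0.18 and -0.15. Msr1 was at -0.21 without Het replicate 1. Of 14 genes of lipid-handling macrophages tested, 0 passed, and 5 were higher and 9 lower in KO, with a median of -0.155. The fatty acid receptor gene Cd36 was at 1.58 (SE 0.425), and both of its dimmer probe sets were higher in KO too, while the apolipoprotein gene Apoe was at -0.85 (SE 0.45) and the cholesterol exporter Abca1 at -0.61 (SE 0.37), with a dimmer Abca1 probe set at -0.015. Apoe had 2628, 5118 and 2391 in KO metastases, against 5498, 5786 and 5916 in Het metastases. KO replicate 2 was the highest of the KO values, as for the C1q genes, and all were below the Het values.

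Of the 8 alveolar macrophage genes on the array, 4 were bright enough, 0 passed, and all 4 were highest in KO replicate 1, as was Mrc1. Their median log2 difference was 0.23, with Chil3, a chitinase-like protein of lung macrophages, at 0.82 (SE 0.82), Car4 at 0.28 (SE 0.70) and Fabp4 at 0.18 (SE 0.59). A dimmer probe set of Fabp4 was at -0.50. Chil3 was at 0.30 without KO replicate 1 and 1.425 without KO replicate 2. Without Het replicate 1 the median of the 4 genes was 0.47, Car4 was at 0.63 and Fabp4 at -0.25. Monocyte genes had a median of 0.28 over 5 genes tested, of which 0 passed. S100a4 was at 0.83 (SE 0.34), Plac8 at 0.47 (SE 0.58) and Fn1 at 0.27 (SE 0.25). Of 11 genes of the CSF1 axis and monocyte chemokines tested, 0 passed, and the median was -0.05. The monocyte chemokine genes Ccl6 and Ccl5 were at 0.82 (SE 0.32) and -0.84 (SE 0.57), and Cx3cl1 was at -0.64 (SE 0.33). Ccl5 was at -1.56 without Het replicate 2 and -0.23 without Het replicate 3. The median of these 11 genes was 0.015 without Het replicate 1.

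A list of other complement genes, mainly of the classical pathway and its receptors but with members of the alternative pathway, had a median of 0.08 over 14 genes tested, 9 higher and 5 lower in KO, with 0 passing, and a median of 0.16 without Het replicate 1. The protease gene C1s1, whose product is activated once C1q has bound, had 206, 254 and 122 in KO metastases, against 125, 51.6 and 77.8 in Het metastases. Its log2 difference was 1.07 (SE 0.44), opposite in sign to the C1q subunits, and the values overlapped. Properdin (Cfp), which stabilises the alternative pathway convertase, was at 0.72 (SE 0.33), and factor B (Cfb), a protease of that pathway, at -1.16 (SE 0.69), or -0.63 without KO replicate 1. Among the partners of Cd14 and TLR signalling genes, 10 were tested, 0 passed, 2 were higher and 8 lower in KO, and the median was -0.22. Tlr2, a receptor that also works with CD14, had 188, 182 and 564 in KO metastases, against 867, 828 and 1116 in Het metastases. It was thus lower in each KO metastasis than in each Het metastasis, as Cd14 was, at -1.72 (SE 0.66) as a log2 difference and an adjusted p of 0.9999 by limma. Irak1 was at -0.40 (SE 0.20), and its dimmer probe sets lay between -0.89 and -0.24. Cxcl1, also of this list, went the other way at 1.08 (SE 0.49), higher in each KO metastasis than in each Het metastasis.

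Of 19 genes of arginine metabolism and alternative activation on the array, 8 were too dim to be tested. The other 11 did not share the difference of Arg1 in their median, which was -0.05, with 0 passing, 4 higher and 7 lower in KO. The list joins genes of both kinds, so its median does not describe alternative activation alone. Tgm2, a transglutaminase induced by IL-4, was at -0.50 (SE 0.23), with its dimmer probe sets between -0.51 and -0.25. Cebpb, a transcription factor known to drive Arg1 in mouse macrophages, was at -0.40 (SE 0.21), with a dimmer probe set at -0.09, and Klf4 was at 0.54 (SE 0.34), or 0.90 without Het replicate 1. For both Tgm2 and Cebpb the KO values lay below the Het values without overlap.

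Markers of other cells had profiles of several kinds. Endothelial genes, 11 of 11 tested and 0 passing, were all highest in KO replicate 1, with a median difference of 0.34 and Sox17 at 1.05 (SE 0.63), Pecam1 at 0.61 (SE 0.48) and Emcn at 0.45 (SE 0.38). Without Het replicate 1 the endothelial median was 0.68 and Emcn was at 0.20. Lung alveolar genes had a median difference of 0.41, with 0 of 12 passing and Aqp5 at 1.20 (SE 0.88), Sftpd at 0.93 (SE 0.93) and Cav1 at 0.39 (SE 0.315). Without KO replicate 1, Aqp5 was at 0.78, Sftpd at 0.22 and Cav1 at 0.19. Without Het replicate 1 the alveolar median was 0.75 and Cav1 was at 0.65. Fibroblast genes had a median of 0.59 over 7 tested, with 0 passing, 5 of the 7 higher in KO without overlap, against 7.82% of all probe sets, and Col1a1 at 0.95 (SE 0.27), Col1a2 at 0.59 (SE 0.24) and Dcn at 0.92 (SE 0.43). A dimmer probe set of Col1a1 was at 0.23. Neutrophil genes had a median of 0.66 over 6 tested, with 0 passing, and the formyl peptide receptor gene Fpr2 was at 1.26 (SE 0.30), Ngp at 1.24 (SE 0.95) and S100a9 at 1.05 (SE 0.88). Without KO replicate 2, Ngp was at 0.595 and S100a9 at 0.46. Neutrophil genes shared the peak of the C1q genes in KO replicate 2, with both other KO metastases below it for 5 of 6. Tumour epithelial genes had a median of 0.01 over 9 tested, or -0.07 without Het replicate 1, with 0 passing and Krt19 at -0.425 (SE 0.32), Esrp1 at -0.21 (SE 0.21) and Krt18 at 0.21 (SE 0.295). Keratinocyte genes had a median of -0.40 over 6 tested, with 0 passing and Krt14 at -0.545 (SE 0.75), Krt10 at -0.14 (SE 0.29) and Krt5 at -0.64 (SE 1.865). Without Het replicate 1 the keratinocyte median was 0.19, Krt14 was at -0.07, Krt10 at -0.07 and Krt5 at -0.04. Keratinocyte genes were high in both KO replicate 2 and Het replicate 1. Their list medians were -1.83, 1.62 and 0.08 in KO replicates 1, 2 and 3. In Het replicates 1, 2 and 3 they were 1.505, -0.755 and -0.18. KO replicate 2 was highest for 3 of the 6 genes and Het replicate 1 for the other 3, and the summed signal was highest in Het replicate 1. Of the dendritic cell genes only Irf8, at -0.07 (SE 0.485) with a dimmer probe set at 0.31, was bright enough among 9 on the array, and of the 15 T, B and NK lymphocyte genes on the array 0 were. The part of these other cells in the macrophage values was not tested.

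**Figure D4:**
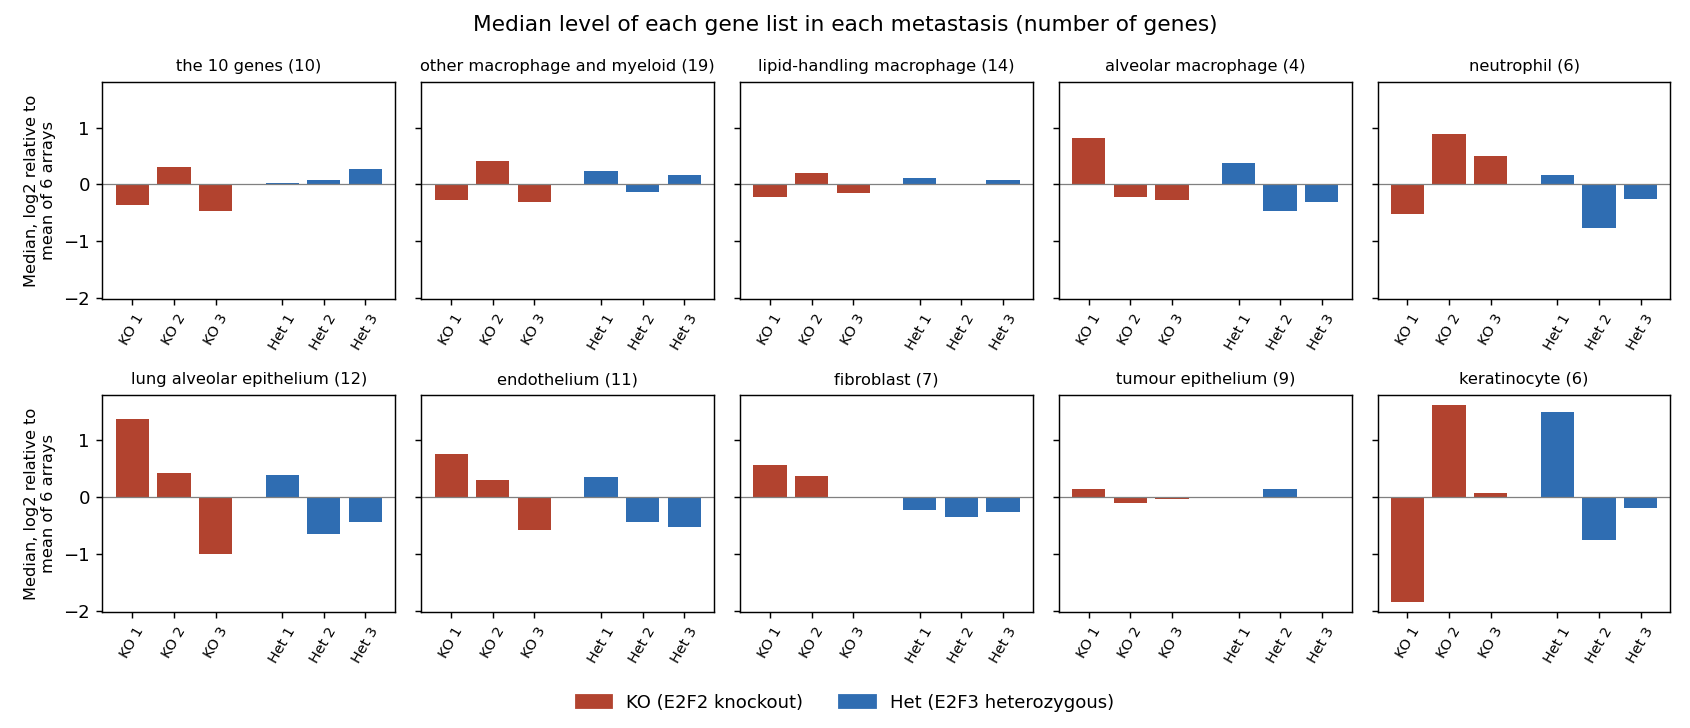
Median of log2(signal + 16) relative to the mean of the 6 arrays (y axis, the same in all panels) in each of the 3 KO and 3 Het metastases, for the 10 genes and for 9 other gene lists, with the number of genes in parentheses. The median is highest in KO replicate 2 for the 10 genes and the other macrophage, lipid-handling macrophage, neutrophil and keratinocyte genes. For keratinocyte genes it is almost as high in Het replicate 1. The median is highest in KO replicate 1 for lung alveolar, endothelial, fibroblast and alveolar macrophage genes.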

How the data were processed

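RNA from 3 KO and 3 Het lung metastases was measured on Affymetrix mouse arrays. The values are linear signal intensities that the authors deposited, and MAS5 and Affymetrix Expression Console are named in the submitters' processing notes. Versions are not given in the sources used here. No detection calls were used, so a dim signal may lie at background. Precision is limited by how many arrays there are.

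Signals were transformed to log2(signal + 16). The 64 control probe sets and the 40% of the rest with the lowest mean were left out, which kept 13575 of 22690 probe sets and all 14 of the 10 genes. Gene names came from the platform annotation, and a probe set with several symbols was not named. KO and the mean of the Het arrays (4 samples in all) were compared by lmFit and eBayes (trend on) of limma 3.58.1, run under R 4.3.3. P-values were adjusted by Benjamini-Hochberg over all probe sets, with calls at 0.05. With a single Het sample, its variance was taken to equal that of KO. The labels do not state that samples are separate animals, and p-values measure only the spread between these samples, which may be technical. SE is that of this fit, and SD is over the arrays of a group. The fit was tested on simulated data, where its estimates had the right sign and size but it seldom called changes below the largest size tried.

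The genes and the 17 other lists were chosen with earlier results of these data known. Named genes were all 10 genes, up to 3 per list with the largest moderated t, and the 5 genes nearest in profile to C1q and to Arg1. Alternatives changed what counts as a sample, the value added before the log, the filter, the normalization (quantile), the choice of probe set and leaving out each array.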

Additional observations from a re-analysis of the deposited data

How the results depend on the processing

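The number of probe sets called and the number of the 10 genes called were 0 under every alternative run: each array as a sample, the title number as a random block, pseudocounts of 1 and 64, no filter, 60% of probe sets left out as dim, quantile normalization, the mean of all probe sets of a gene (for the count of genes), and each array left out in turn. With 60% left out, Adgre1 and Mrc1 were not tested. The count of genes without overlap was 3 to 8 over the arrays left out, and it was 8 without KO replicate 2, against 23.5% of all probe sets. The median difference of the 10 genes ran from -0.55 to -0.05 over the arrays left out, the mean of the C1q subunits from -0.67 to -0.13, and Arg1 from 1.02 to 1.49. Leaving out any 1 array moved the difference by over 1.5 times for 6 of the 10 genes and 28 of 52 others named. Signs turned for single genes: Csf1r ran from -0.269 to 0.057, turning without KO replicate 1 (0.001) and without KO replicate 3, C1qb ran from -0.495 to 0.055 and turned without KO replicate 1, Car4 ran from -0.125 to 0.785, Fabp4 from -0.248 to 0.621, Krt14 from -0.883 to 0.047, Krt5 from -1.64 to 0.87, Irf8 from -0.27 to 0.26 and Plac8 from -0.074 to 0.890. The cause was not tested. A setting chosen after seeing the data, each array as a sample without Het replicate 1, called 0 genes and turned Fabp4 to -0.25. No paired analysis was possible because replicate numbers were given in accession order and pair no samples. Signal over background was not available, so how far the dimmer genes stand above it is not known here.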
